A study of Mus musculus with 12 samples.

Results

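The 32 genes described here encode the machinery that takes a secretory or membrane protein into the endoplasmic reticulum (ER) and attaches N-linked glycans to it. They were chosen by gene symbol, as named subunits of the signal recognition particle (6 genes), its receptor (1), the Sec61 translocon and its partners (6), the translocon-associated protein complex TRAP (4), the signal peptidase complex (5) and oligosaccharyltransferase (10). All 32 were found among the 54532 genes of the count table, and all 32 were among the 14424 genes that passed the filter on low counts. The libraries came from wild-type ATDC5 cells, a mouse line labelled as cartilage progenitor cells, that were held for 10 min at 37 °C (control), 40 °C or 44 °C, with 4 libraries per temperature that the series text calls biological replicates. No other treatment, allele or transgene was labelled. Poly(A) RNA was sequenced, and the time from heating to RNA extraction is not given in the sources used here.

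Proteins bound for secretion carry a signal peptide that the signal recognition particle binds as it leaves the ribosome, pausing translation until its receptor hands the ribosome to the Sec61 channel in the ER membrane. Signal peptidase then removes the signal peptide, and oligosaccharyltransferase moves a preassembled sugar from a lipid carrier onto asparagine residues of the growing chain. Cells that make cartilage matrix secrete large amounts of collagen and glycoprotein through this route.

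Library totals ranged from 16269026 to 19506705 counts, so 3 counts corresponded to 0.154 to 0.184 CPM (counts scaled to library size). Marker levels in this paragraph are CPM on library totals. Levels in later paragraphs are CPM scaled by trimmed mean of M-values (TMM). The chondrocyte list (10 genes) summed to 119 to 151 CPM at 37 °C. It was 104 to 134 CPM at 40 °C and 105 to 146 CPM at 44 °C. The regulators Sox9 (33.3 to 70.2 CPM) and Runx2 (58.0 to 67.3 CPM) made up most of these sums. Sox5 was at 3.85 to 9.95 CPM, and Sox6 had at most 2 counts. Cartilage matrix genes were low, with Col2a1 at 0.415 to 1.86 CPM, Acan at 0.795 to 2.63 CPM and Matn3 at 0.57 to 1.86 CPM. Comp had at most 4 counts and Ihh at most 5, and Col10a1 had no count in 8 of 12 libraries. The macrophage list (5 genes) summed to 33.8 to 49.9 CPM at 37 °C, 27.4 to 36.6 CPM at 40 °C and 25.2 to 39.0 CPM at 44 °C, nearly all of it Cd68 (18.3 to 40.4 CPM) and Mrc1 (6.86 to 9.47 CPM), while Adgre1 was at 0 in all 12 libraries and Ptprc had at most 1 count. The epithelial list (4 genes) summed to 83.7 to 106 CPM at 37 °C, 74.1 to 100 CPM at 40 °C and 96.2 to 122 CPM at 44 °C. Krt18 carried that sum at 72.7 to 120 CPM, with Epcam, Krt8 and Cdh1 at no more than 1.49 CPM. The summed smooth muscle and perivascular list (5 genes) was 203 to 232 CPM at 37 °C, 213 to 261 CPM at 40 °C and 134 to 163 CPM at 44 °C, with all 3 of its tested genes called lower at 44 °C than at 37 °C. Acta2 (69.4 to 165 CPM) and Cspg4 (52.7 to 84.8 CPM) made up most of that sum. Pdgfrb was at 8.57 to 20.6 CPM, while Rgs5 had at most 2 counts and Myh11 at most 4. The summed endothelial list (5 genes) moved from 2.49 to 3.72 CPM at 37 °C to 4.22 to 6.33 CPM at 44 °C. Its highest gene, Kdr, was at most 3.88 CPM. The labels name only ATDC5 cells, and the part of these movements in the results below was not tested. Bulk RNA cannot tell a change in the number of cells expressing a gene from a change in its RNA per cell.

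At 44 °C, 4 of the 32 genes were lower than at 37 °C and 1 was higher. The lower genes were the oligosaccharyltransferase subunits Magt1, Rpn2 and Ddost and the TRAP subunit Ssr4, which fell by 12.5% to 19.0%, and the higher gene was Spcs3 of signal peptidase, which rose by 15%. At 40 °C none of the 32 passed the test against 37 °C. The genes were tested with edgeR's quasi-likelihood test and called at a Benjamini-Hochberg adjusted p under 0.05 over all genes tested.

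The 5 called genes were 15.6% of the 32, beside 13.7% of all genes tested in this comparison, a share close to the background. By direction, 12.5% of the members were lower beside 7.11% of all genes, and 3.12% were higher beside 6.58%. The groups did not overlap for 8 members (25%), beside 17.8% of all genes; 4 were higher, beside 8.62% of genes, and 4 lower, beside 9.13%. The median log2 fold change of the 32 was 0.02, beside -0.000335 for all genes, and the median size of the change was 0.11, beside 0.17 for all genes. The sign of that median was not stable: it was -0.07 with the largest component of the spread within groups as a covariate. Scores on that component averaged -0.424 at 37 °C and 0.412 at 44 °C (SD 0.779 and 1.24). The covariate can therefore also take up part of the temperature difference. Leaving out replicate 1 at 37 °C gave a median of -0.04, and at 44 °C leaving out replicate 4 gave -0.03 and replicate 2 gave -0.0046.

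**Figure D1:**
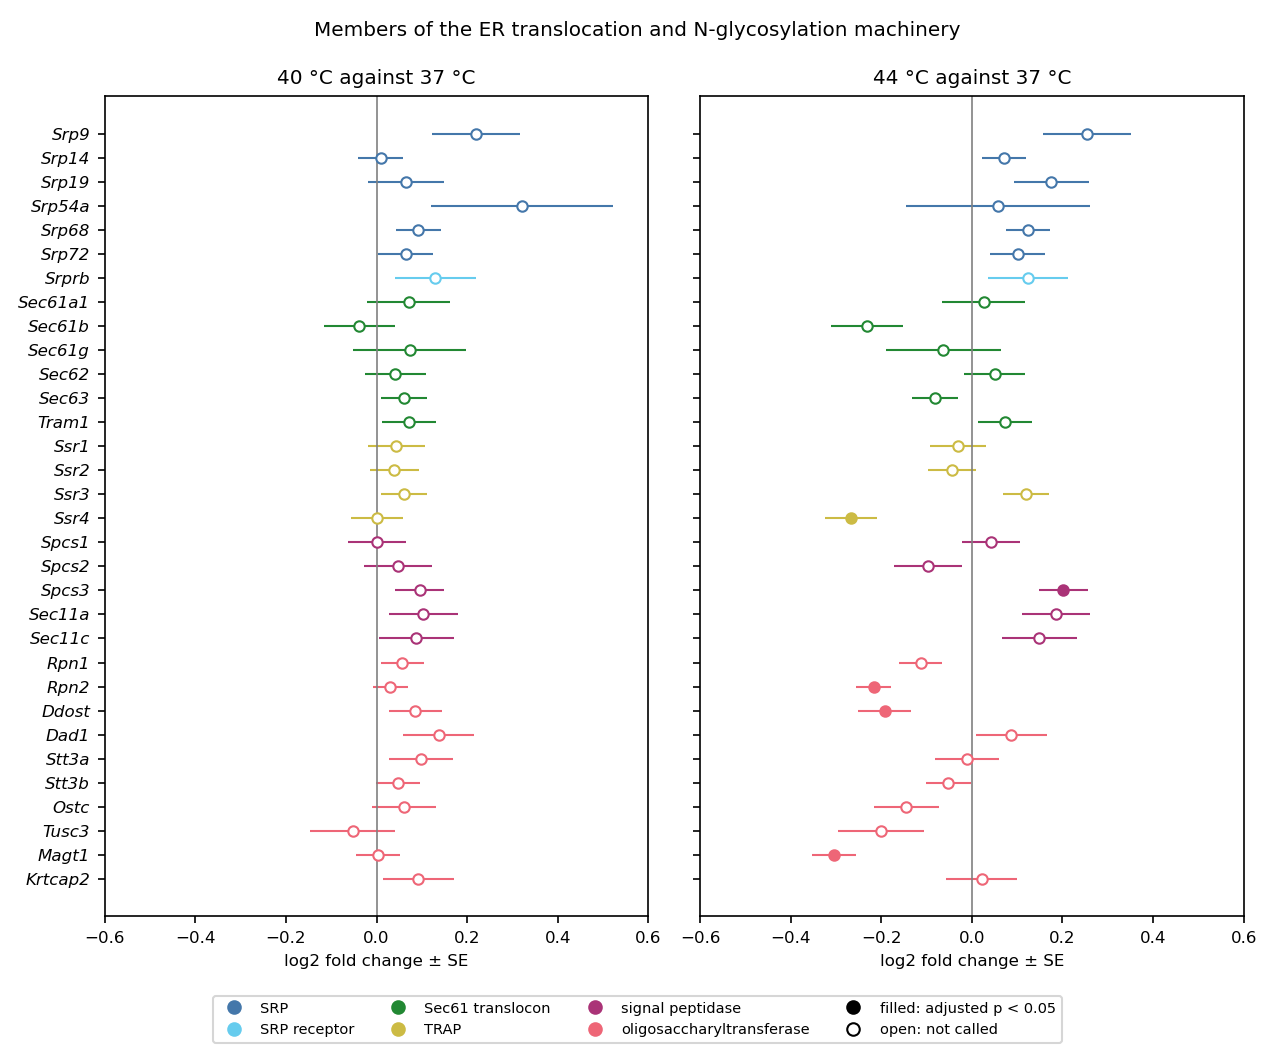
Log2 fold change ± SE of each of the 32 genes at 40 °C (left panel) and 44 °C (right panel) against 37 °C, coloured by complex; filled points passed the adjusted p threshold. At 44 °C against 37 °C, 3 of the 10 oligosaccharyltransferase genes were lower, and at 40 °C against 37 °C no gene passed.

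Levels per kilobase of the deposited gene length gave the ranking of the members at 37 °C, with the limit that how that length was derived is not stated. The highest were the TRAP subunit Ssr3 at 152 ± 2.80 (SD, n = 4) CPM per kilobase, Ssr2 at 139, Ddost at 135 ± 3.80 and Rpn2 at 126 ± 1.89. The lowest were Srp9 at 1.62 and Srp54a at 2.0 CPM per kilobase, and both have near copies that could share reads. Ssr2, near the top, also matches Rtraf at 98.6% identity over 366 bases (mean count 3347, against 4462 for Ssr2). The catalytic subunits of oligosaccharyltransferase were at 48.9 ± 1.95 (Stt3b) and 34.8 ± 2.20 (Stt3a) CPM per kilobase. This order rests on the deposited lengths, since without them Stt3a averaged 311.4 and Stt3b 206.5 CPM.

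**Figure D2:**
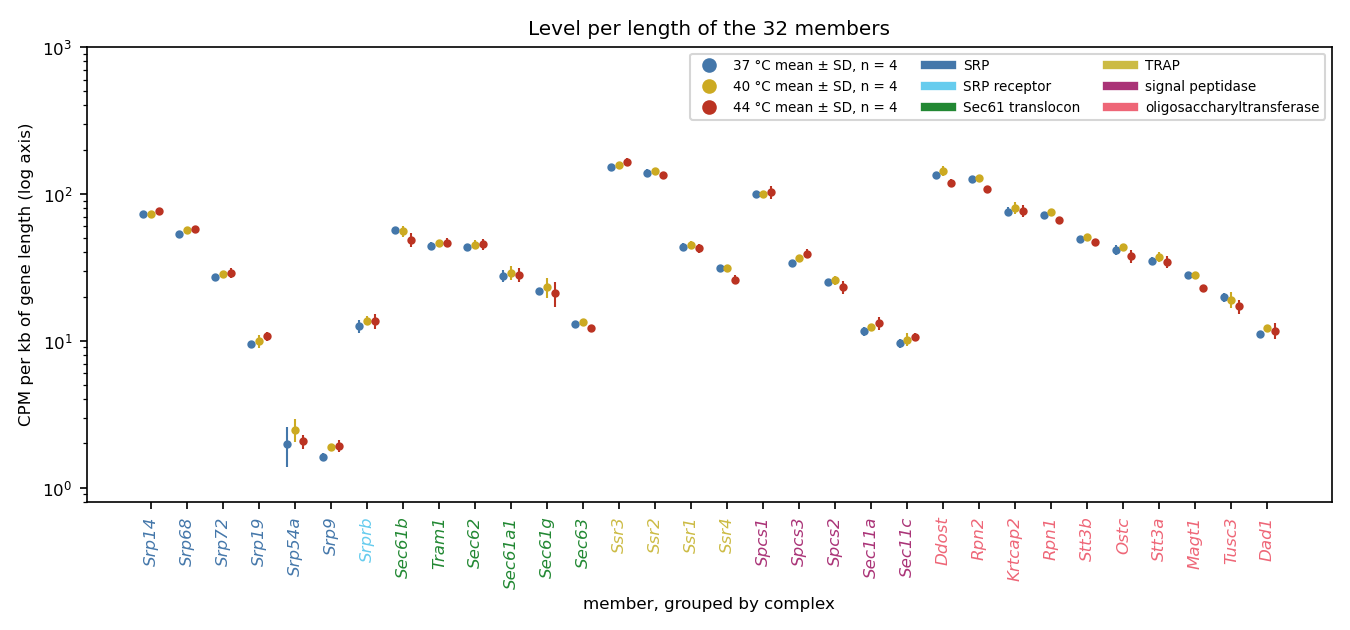
Level of each of the 32 genes in CPM per kilobase of deposited gene length on a log axis, as the mean ± SD (n = 4) at 37, 40 and 44 °C, grouped and coloured by complex. At 37 °C Ssr3 was highest at 152 and Srp9 lowest at 1.62 CPM per kilobase.

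Among the genes of the signal recognition particle, none of 6 was called at 44 °C. All 6 had a positive log2 fold change, with a median of 0.11 beside -0.000335 for all genes. All 6 were also positive with DESeq2, limma-voom and library totals. Without 37 °C replicate 1 or without 44 °C replicate 3, 5 of 6 were positive. Srp9, whose protein forms the elongation-arrest domain with Srp14, read 8.32, 9.04, 8.97 and 9.55 CPM at 37 °C, 10.1, 10.2, 10.7 and 10.7 CPM at 40 °C, and 9.93, 10.4, 10.4 and 12.1 CPM at 44 °C. Every heated library was above every 37 °C library. The log2 fold change at 44 °C was 0.25 ± 0.0970 (SE), with an adjusted p of 0.0931. A processed pseudogene, Gm13736, matches 253 bases of Srp9 at 100% identity and had a mean count of 360.2 against 173.2 for Srp9, so the reads of the gene and its copy may not be separable. Srp19, an assembly subunit, and Srp68, part of the core, also did not overlap between 44 °C and 37 °C, with log2 fold changes of 0.18 (adjusted p 0.164) and 0.12 (adjusted p 0.104). Srp14 and Srp72 had log2 fold changes of 0.07 and 0.10.

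Srp54a, which encodes the subunit that binds the signal peptide, had a log2 fold change of 0.06 with an adjusted p of 0.875. It is 99.6% identical to Srp54b over 3644 bases and is also close to Srp54c, so the deposited counting could split reads among the 3 genes. Srp54a varied most among the members at 37 °C, with a coefficient of variation of 30.5%. The summed level of the 3 copies was 41.8 ± 8.88, 43.7 ± 8.40 and 44.0 ± 5.57 CPM (SD, n = 4) at 37, 40 and 44 °C, differences below the spread. Srprb, the membrane-anchored subunit of the receptor, had a log2 fold change of 0.12 with an adjusted p of 0.368.

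None of the 6 genes of the Sec61 group was called. Sec61a1, the pore-forming subunit of the channel, read 162, 190, 205 and 188 CPM at 37 °C, 189, 221, 200 and 172 CPM at 40 °C, and 167, 209, 178 and 205 CPM at 44 °C. The ranges of the 3 groups overlapped. Its log2 fold change at 44 °C was 0.03, with a 95% confidence interval of -0.17 to 0.22 and an adjusted p of 0.877. Sec61b, a small subunit, had a log2 fold change of -0.23 ± 0.0791 (SE) with an adjusted p of 0.0654, and 3 of 4 libraries at 44 °C were below every library at 37 °C. With DESeq2 it was called lower. Sec61g had -0.06, and it shares 99.1% of 424 bases with Gm10177 (mean count 222.8 against 937.4 for Sec61g). The partners Sec62 (0.05), Sec63 (-0.08), which help move chains through the pore, and Tram1 (0.07) also did not pass.

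Of the 4 TRAP subunits, which bind the channel beside the ribosome, only Ssr4 was called. Ssr4 read 95.4, 96.2, 98.7 and 98.3 CPM at 37 °C, 96.0, 102, 90.8 and 100.4 CPM at 40 °C, and 79.9, 75.4, 79.0 and 88.6 CPM at 44 °C. Every 44 °C library was below every other library. It fell by 0.27 ± 0.0578 (SE) on the log2 scale (-16.9%), with an adjusted p of 0.00869. The gene lies on chromosome X at 73787028-73790830 (mm10, ENSMUSG00000002014, protein coding). Its partners had log2 fold changes of -0.03 (Ssr1), -0.04 (Ssr2) and 0.12 (Ssr3), with adjusted p of 0.78, 0.615 and 0.126.

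Of the 5 signal peptidase genes, 1 was called. Spcs3, an accessory subunit, read 118, 114, 120 and 121 CPM at 37 °C, 126, 125, 123 and 130 CPM at 40 °C, and 125, 130, 146 and 142 CPM at 44 °C. All libraries at 40 °C and 44 °C were above all libraries at 37 °C, and the 40 °C and 44 °C groups overlapped. It rose by 0.20 ± 0.0540 (SE) on the log2 scale at 44 °C, with an adjusted p of 0.0251. The gene lies on chromosome 8 at 54520433-54529998 (mm10, ENSMUSG00000054408). The call was lost when 37 °C replicate 1, 2 or 4 or 44 °C replicate 3 or 4 was left out, and with only the 2 groups in the fit, with adjusted p between 0.00468 and 0.0791 over all alternatives. The catalytic subunits Sec11a (0.18) and Sec11c (0.15) and the small subunits Spcs1 (0.04) and Spcs2 (-0.10) did not pass, and Spcs1 overlaps Glt8d1 by 273 bases.

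Oligosaccharyltransferase held the other 3 lower genes. Of its 10 genes, 8 had a negative log2 fold change at 44 °C, with a median of -0.13 beside -0.000335 for all genes. This split was the same with DESeq2, limma-voom and library totals. Members shifted together in some libraries (replicate 1 at 44 °C was lowest for 24 of the 32), so the signs of subunits are not independent. Leaving out 1 library gave 7 to 9 negative genes, with the median nearest 0 at -0.09 without 44 °C replicate 1. The summed level of the 10 genes was 2162 ± 45 CPM at 37 °C, 2248 ± 36.1 CPM at 40 °C and 1974 ± 51.2 CPM at 44 °C (SD, n = 4). The 44 °C range, 1903 to 2018 CPM, lay below the 37 °C range of 2116 to 2221 CPM. This sum weighs high-count genes most and holds the called genes, so it is not a fall of every subunit. From 37 °C to 44 °C, Rpn2 averaged 559.5 and 481.3 CPM, Ddost 286.7 and 250.9 CPM, and Magt1 131 and 106.1 CPM. Dad1 (43.3 and 45.98 CPM) and Krtcap2 (115.2 and 116.9 CPM) averaged higher at 44 °C.

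Magt1, an oxidoreductase subunit of the Stt3b form of the enzyme, read 125, 132, 129 and 138 CPM at 37 °C, 129, 136, 131 and 129 CPM at 40 °C, and 105, 102, 112 and 105 CPM at 44 °C. All 4 libraries at 44 °C were below all others. It fell by 0.30 ± 0.0486 (SE) on the log2 scale (-19.0%), with an adjusted p of 0.00147. The gene lies on chromosome X at 105968084-106011906 (mm10, ENSMUSG00000031232). Tusc3, its alternative subunit, had a log2 fold change of -0.20 with an adjusted p of 0.163. The within-library log2 ratio of Tusc3 to Magt1 counts differed by 0.10 ± 0.098 (SE) between 44 °C and 37 °C (exact permutation test, two-sided, p 0.343, adjusted p 0.914 over 9 tests, smallest possible p 0.0286).

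Rpn2, a structural subunit of the core, read 567, 548, 558 and 565 CPM at 37 °C, 567, 556, 579 and 583 CPM at 40 °C, and 476, 487, 491 and 472 CPM at 44 °C. The 44 °C libraries were below all 8 others. It fell by 0.22 ± 0.0389 (SE) on the log2 scale (-14.0%), with an adjusted p of 0.00289. The gene lies on chromosome 2 at 157279017-157326319 (mm10, ENSMUSG00000027642). Ddost, which holds the core together with the ribophorins, read 297, 288, 278 and 284 CPM at 37 °C, 294, 281, 310 and 333 CPM at 40 °C, and 264, 264, 237 and 239 CPM at 44 °C. The 44 °C libraries were again below all others. Ddost fell by 0.19 ± 0.0586 (SE) on the log2 scale (-12.5%), with an adjusted p of 0.0423. The gene lies on chromosome 4 at 138304730-138312628 (mm10, ENSMUSG00000028757). This call was lost with library totals and when 37 °C replicate 1, 2 or 4 or 44 °C replicate 2, 3 or 4 was left out, with adjusted p between 0.0184 and 0.114 over all alternatives.

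**Figure D3:**
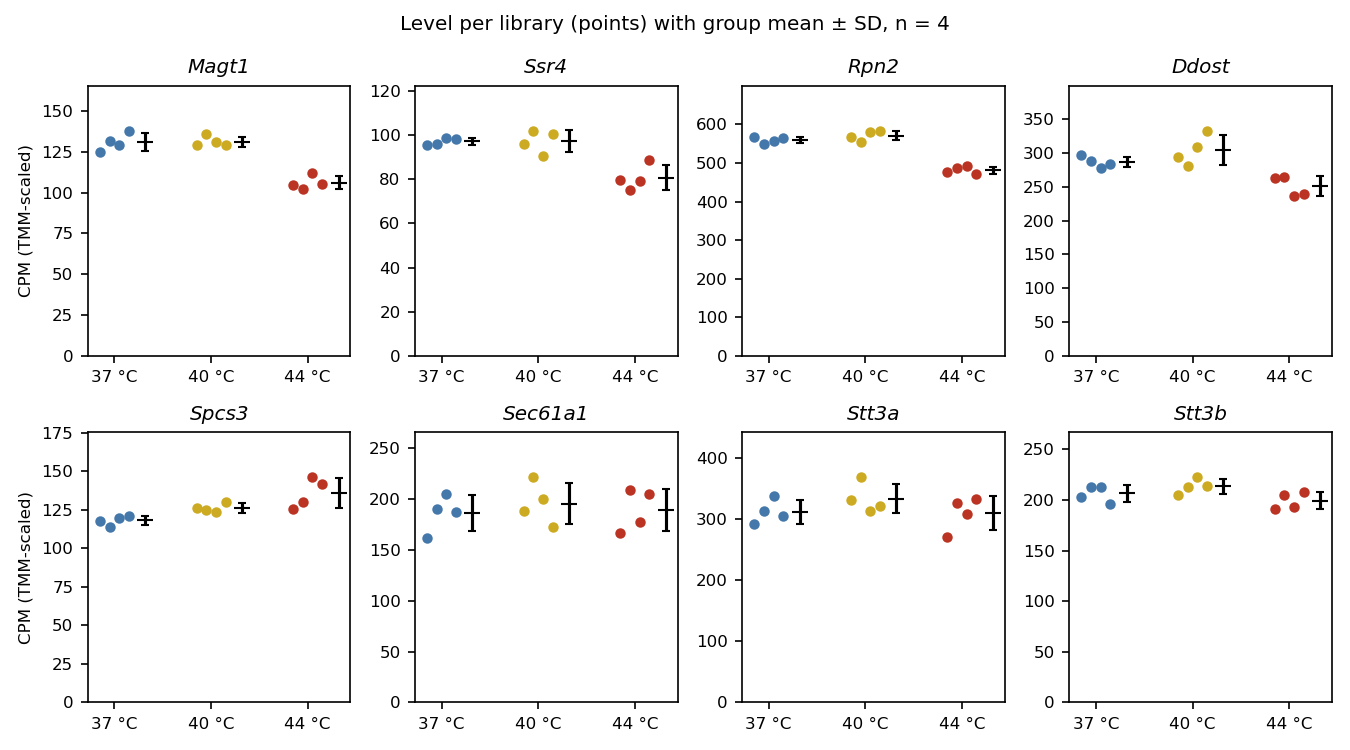
TMM-scaled CPM in each library (points) with the group mean ± SD (n = 4) at 37, 40 and 44 °C for the 5 called genes and for Sec61a1, Stt3a and Stt3b; axes start at 0. Magt1, Ssr4, Rpn2 and Ddost are below all other libraries at 44 °C.

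The catalytic subunits were not called in the main fit. Stt3a, which acts on chains as they enter the ER, read 291, 313, 338 and 304 CPM at 37 °C, 331, 368, 313 and 322 CPM at 40 °C, and 270.0, 325, 309 and 332 CPM at 44 °C. Its log2 fold change was -0.01, with a 95% confidence interval of -0.16 to 0.14. Stt3b, which glycosylates sites that Stt3a skips, read 203, 213, 213 and 196 CPM at 37 °C, 205, 213, 222 and 214 CPM at 40 °C, and 191, 205, 193 and 208 CPM at 44 °C. Its log2 fold change was -0.05, with an interval of -0.16 to 0.05. Groups of both genes overlapped, and the within-library log2 ratio of Stt3a to Stt3b was 0.04 higher at 44 °C (exact permutation p 0.543, adjusted p 0.914). The remaining subunits Rpn1 (-0.11), Ostc (-0.14), Dad1 (0.09) and Krtcap2 (0.02) did not pass. In 1 alternative, edgeR with the within-group component as a covariate, both catalytic subunits were called lower at 44 °C against 40 °C. Stt3a had a log2 fold change of -0.15 there (adjusted p 0.00489) and Stt3b -0.11 (adjusted p 0.0494).

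The promoters of the called genes are shown because the chaperone gene Hspa5, which fell at 44 °C, has an ER stress response element. Each is 250 bases up to the RefSeq start (GRCm38.p6), in lower case, with CCAAT or its complement, CCACG or its complement, and full elements in capitals. The windows are chrX:73786773-73787022 on the plus strand for Ssr4, chr2:157278848-157279097 plus for Rpn2 (the nearer of 2 starts), chr4:138304488-138304737 plus for Ddost, chrX:106011803-106012052 minus for Magt1 and chr2:34771840-34772089 plus for Hspa5. No promoter of Spcs3 was matched.
Ssr4: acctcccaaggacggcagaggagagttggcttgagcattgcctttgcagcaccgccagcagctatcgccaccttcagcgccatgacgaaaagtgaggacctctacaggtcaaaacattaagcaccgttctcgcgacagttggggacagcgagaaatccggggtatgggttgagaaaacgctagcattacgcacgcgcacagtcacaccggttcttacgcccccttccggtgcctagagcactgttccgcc
Rpn2: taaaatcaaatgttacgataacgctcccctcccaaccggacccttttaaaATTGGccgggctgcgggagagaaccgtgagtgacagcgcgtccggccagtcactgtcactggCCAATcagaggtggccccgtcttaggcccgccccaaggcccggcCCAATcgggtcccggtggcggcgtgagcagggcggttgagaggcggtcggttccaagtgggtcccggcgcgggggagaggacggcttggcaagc
Ddost: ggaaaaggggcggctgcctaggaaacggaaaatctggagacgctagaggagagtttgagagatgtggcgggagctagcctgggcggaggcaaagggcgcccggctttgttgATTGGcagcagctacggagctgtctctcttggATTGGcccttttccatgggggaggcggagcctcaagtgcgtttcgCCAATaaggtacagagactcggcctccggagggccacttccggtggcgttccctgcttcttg
Magt1: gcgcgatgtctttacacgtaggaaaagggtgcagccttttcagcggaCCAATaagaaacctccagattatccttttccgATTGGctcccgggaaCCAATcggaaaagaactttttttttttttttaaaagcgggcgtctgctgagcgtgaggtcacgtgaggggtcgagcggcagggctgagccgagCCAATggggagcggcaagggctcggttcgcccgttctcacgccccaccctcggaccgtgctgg
Hspa5: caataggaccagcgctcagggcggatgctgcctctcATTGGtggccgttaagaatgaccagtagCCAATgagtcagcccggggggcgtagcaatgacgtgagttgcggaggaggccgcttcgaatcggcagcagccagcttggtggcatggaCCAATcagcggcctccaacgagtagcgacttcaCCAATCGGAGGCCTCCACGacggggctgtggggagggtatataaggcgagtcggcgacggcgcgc
The element of CCAAT, 9 bases of any kind and CCACG was found, on either strand, in 0.113% of 32817 promoters and in 0 of the 23 members with a matched promoter. ATTGG, any base and CCACG was in 0.0305% and TGACGTGG in 0.564% of promoters, and each was in 0 of the 23. Elements this rare are unlikely in any 23 promoters, so 0 of 23 cannot set the members apart from other genes. Only exact letters within 250 bases were searched. A heat shock element of 3 units (GAA, TTC and GAA, or TTC, GAA and TTC, each 2 bases apart) was in 0.466% of promoters and in 1 member, Sec62. CCAAT alone was in 33.8% of promoters and in 11 of the 23 members. The shares count each promoter window once, while a member counts if any of its starts held the motif, so the 2 are not alike. Rpn2 and Ddost held 3 CCAAT boxes each and Magt1 held 4, while Ssr4 held none. A match is a description of these letters, and its part in the levels was not tested.

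Heating to 40 °C was tested against the same 37 °C libraries. None of the 32 genes was called, beside 0% of all genes with edgeR, where 5.21% of genes had an unadjusted p under 0.05. With DESeq2, no member was called. The log2 fold change was above 0 for 30 of 32 members (93.8%, beside 49.7% of all genes), with a median of 0.06, and for 26 of 32 with library totals, where the median was 0.04 beside -0.02 for all genes. The median also fell to 0.0401 without 40 °C replicate 2 (29 of 32 above 0) and to 0.0435 without 37 °C replicate 1 (28 of 32). It was 0.0363 with the within-group component as a covariate (28 of 32). Members shifted together in these libraries, with 37 °C replicate 1 lowest for 20 of 32 and 40 °C replicate 2 highest for 15. The signs of the members are therefore not independent. Only Srp9 had an unadjusted p under 0.05, with a log2 fold change of 0.22 and an adjusted p of 0.823. The groups did not overlap for Srp9 and Spcs3 (6.25% of members, both higher, beside 3.83% of genes in either direction and 1.61% higher). Spcs3 had a log2 fold change of 0.10 with an adjusted p of 0.823.

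Between 44 °C and 40 °C, which shares the 44 °C libraries with the comparison above, 4 members were lower and none was higher (12.5%, beside 5.02% of all genes called, 3.14% lower and 1.88% higher). They were Magt1 (-0.31, adjusted p 0.00206), Rpn2 (-0.25, adjusted p 0.00206), Ddost (-0.28, adjusted p 0.0126) and Ssr4 (-0.27, adjusted p 0.0145). All 10 oligosaccharyltransferase genes had a negative log2 fold change, with a median of -0.16 beside 0.0104 for all genes. All 10 were also negative with DESeq2, limma-voom and library totals. The groups did not overlap for 6 members (18.8%, beside 10.7% of genes in either direction and 5.44% lower), all lower: these 4, Rpn1 (-0.17, adjusted p 0.0531) and Ostc (-0.20, adjusted p 0.119). The calls for Ssr4 and Ddost were lost with only the 2 groups in the fit, and that for Ssr4 also without 44 °C replicate 2.

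**Figure D4:**
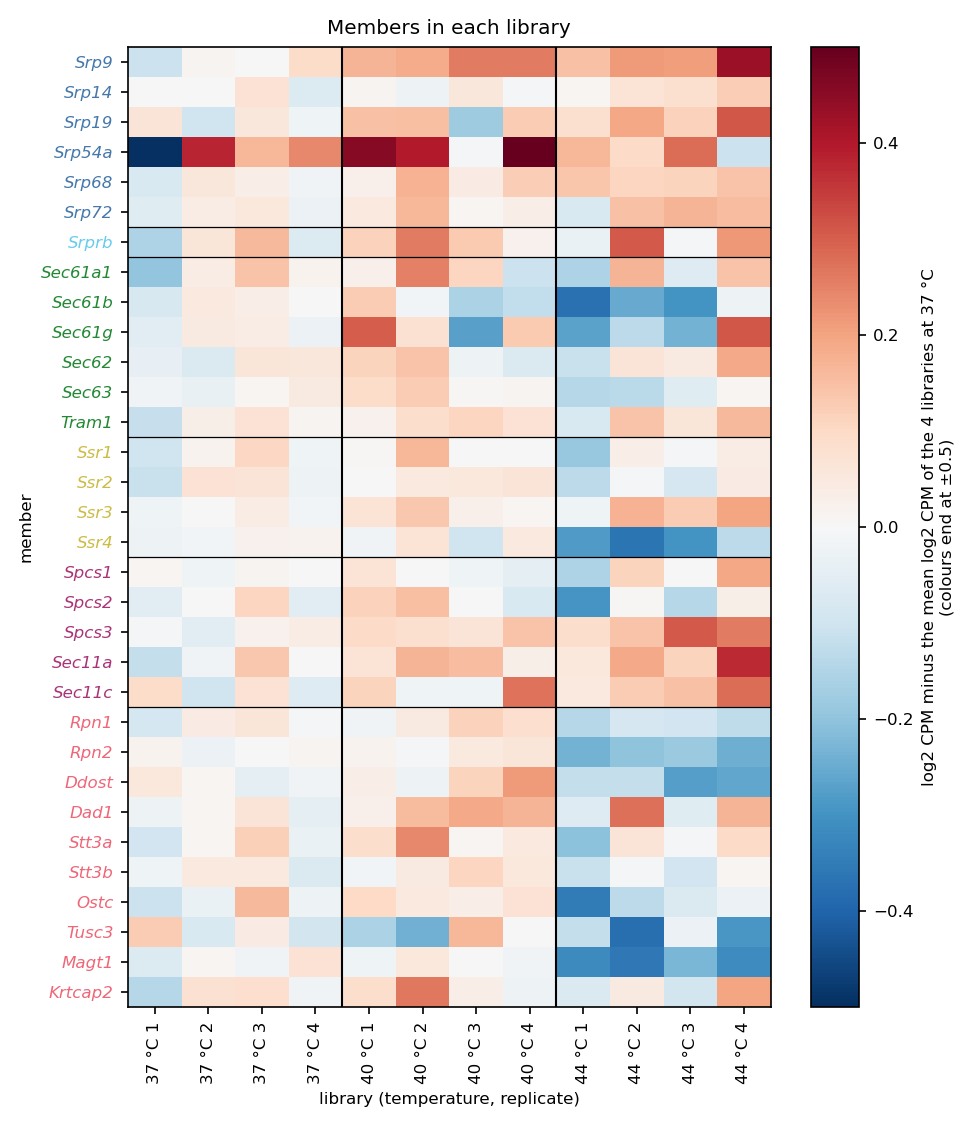
Log2 CPM of each member in each of the 12 libraries minus the mean of the 37 °C libraries, with genes ordered by complex; colours end at ±0.5. Srp9 is above 0 in all heated libraries, and Ssr4, Rpn2, Ddost and Magt1 are below 0 in all 4 libraries at 44 °C.

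Libraries of a group also differed for these genes. At 44 °C, replicate 1 had the lowest value for 24 of the 32 genes and the highest for 0, beside 31.6% of all genes lowest and 32.1% highest, and its summed level was 4860 CPM, against 5194 to 5464 CPM in the other 3. At 44 °C, replicate 4 was highest for 21 of 32, beside 22.9% of all genes. At 37 °C, replicate 1 was lowest for 20 of 32, beside 33.2% of all genes, and replicate 3 highest for 17, beside 28.7%. At 40 °C, replicate 2 was highest for 15 of 32, beside 33.8%. Without 44 °C replicate 1, 8 members (25%) were called against 37 °C, beside 22.9% of all genes in that fit, 4 higher (Sec11a, Spcs3, Srp72 and Ssr3) and 4 lower. Without 37 °C replicate 1, 2 or 4, 3 members were called in each case, beside 6.70%, 7.90% and 7.26% of all genes.

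Neighbouring gene lists, chosen with these data known, are given by the same counts for 44 °C against 37 °C. Over all genes tested, 13.7% were called, 6.58% higher and 7.11% lower. The calls of single list genes were not followed through the alternative fits. Of 7 other targeting, translocon and oligosaccharyltransferase genes and of 6 multipass translocon genes, none was called, with medians of -0.04 and 0.14. Of 10 genes of the ER membrane protein complex, another insertion route, 3 (30%) were higher and none lower, with a median of 0.20. They were Mmgt1 (0.52, adjusted p 0.0134), Emc8 (0.27, adjusted p 0.0366) and Emc4 (0.20, adjusted p 0.0462). Of 7 genes for insertion of tail-anchored proteins, only Get4 (14.3% of the list) was called, and it was higher (0.26, adjusted p 0.0111).

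Of 23 genes that build the lipid-linked sugar, 3 were higher and 1 was lower, with a median of 0.03. The share called, 17.4%, was close to the 13.7% of all genes. Alg13, a subunit of an early transferase, rose by 0.42 (adjusted p 0.00361), Alg10b rose by 0.31 (adjusted p 0.0243), and Dpm3, a stabilising subunit of dolichol-phosphate-mannose synthase, fell by 0.37 (adjusted p 0.041). Of 13 genes for trimming of the transferred glycan and lectin folding, 2 (15.4%) were lower and none higher. Calr, a lectin chaperone, fell by 0.80 ± 0.0530 (SE) on the log2 scale (adjusted p 7.85e-07) and its partner oxidoreductase Pdia3 fell by 0.47 (adjusted p 1.6e-05).

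Of 14 tested genes of the ER unfolded protein response, 10 (71.4%) were lower and none higher, with a median of -0.59. Hspa5, the main ER chaperone, averaged 1903 ± 131 CPM at 37 °C and 1057 ± 57.7 CPM at 44 °C (SD, n = 4), and Hsp90b1 averaged 923 ± 31.7 and 589 ± 42.3 CPM. Their log2 fold changes were -0.85 and -0.65, and the others at the ends of the called range were Sdf2l1 (-0.84, adjusted p 0.000151), Herpud1 (-0.36, adjusted p 0.0018) and Creld2 (-0.30, adjusted p 0.00651). Of 12 genes of the vesicle coat that carries cargo out of the ER, 2 were higher (Sec13 and Sec23b) and 2 lower (Sec24d and Sec24c). Together these calls were 33.3% of that list.

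**Figure D5:**
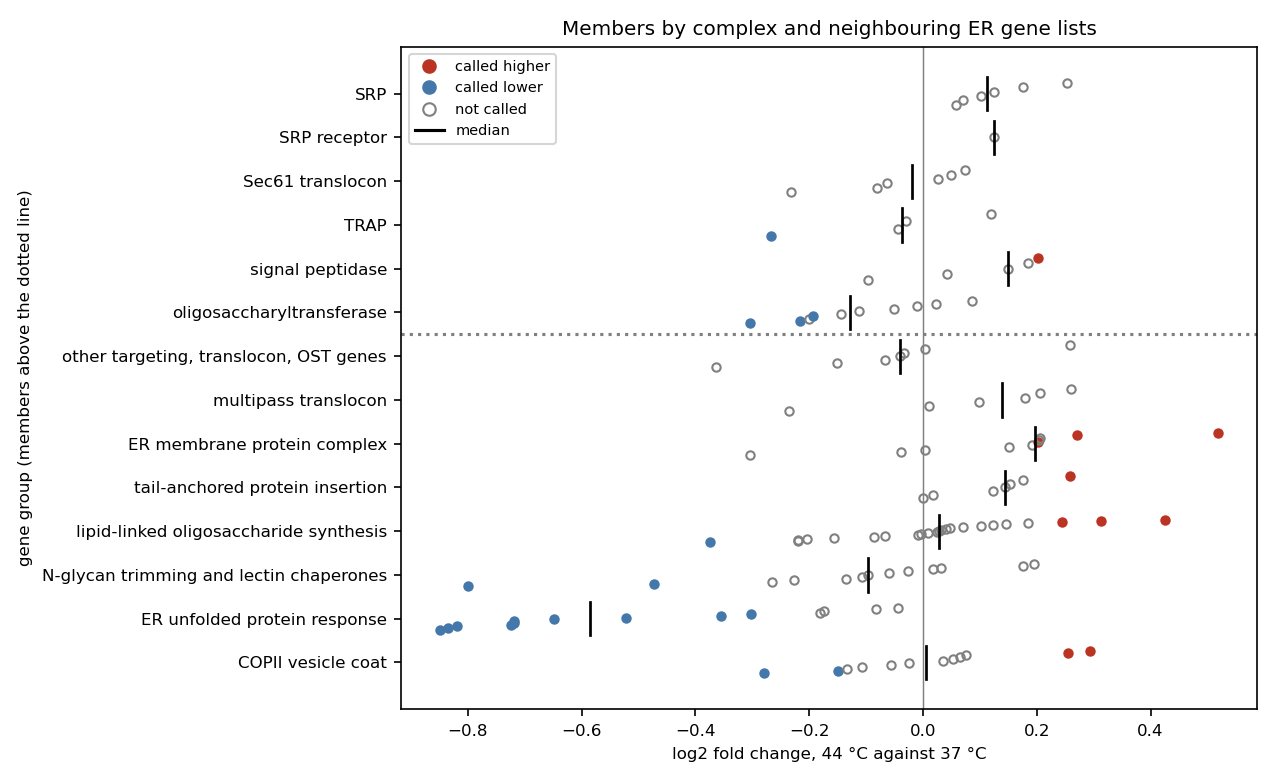
Log2 fold change at 44 °C against 37 °C of each gene, by member complex (above the dotted line) and neighbouring list (below), with filled points for called genes and a bar for the median. The unfolded protein response list lies lowest, at a median of -0.59, and the oligosaccharyltransferase median is -0.13.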

How the data were processed

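Raw counts per gene were deposited by the authors for 12 libraries, with gene coordinates and a gene length in bases. Per the submitters' processing notes, featureCounts 1.5.0-p3 and HISAT2 2.0.5 were used on mm10, next to fastp and StringTie 1.3.3b, with no order or strand setting given in the sources used here, so strand-blind and multi-mapped counting cannot be told from the deposited counts. The 32 members and the other lists were chosen with earlier results of these data known. Genes were filtered with filterByExpr (minimum count 10, total 15), counts were scaled by TMM and fitted with edgeR 4.0.16 (R 4.3.3) as 1 mean per temperature over all 12 libraries, and each pair of temperatures was tested with the quasi-likelihood F-test, two-sided, adjusted by Benjamini-Hochberg over 14424 genes. Errors are SE for fold changes and SD for levels; intervals cover 95%. Genes called in each role are named, with Stt3a, Stt3b and Sec61a1. In the neighbouring lists, names were taken from the 2 highest and 2 lowest called, with Hspa5, Calr and Hsp90b1 in every case. Not all of these are named: a higher gene of the lipid-linked sugar list is left out. Alternatives were DESeq2 1.42.0, limma-voom (limma 3.58.1), library totals, no filter, only the 2 groups, a replicate block, a within-group component as covariate, a threshold of 0.01, and leaving out each library. Pair ratios used log2 of counts plus 0.5. Near copies were found with blastn 2.17.0 against GENCODE M21 transcripts (at least 95% identity over 200 bases). Promoters came from RefSeq (GRCm38.p6) for 23 of 32 members. The largest component of the spread within groups held 29.8% of its variance. Its direction was taken within groups, but its scores were not centred by group. They averaged -0.424, 0.0117 and 0.412 at 37, 40 and 44 °C, so this covariate was not free of temperature. 1 listed symbol (Ddit3) had more than 1 row and was left out.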

Additional observations from a re-analysis of the deposited data

Results flagged for a closer look

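In 96 groups of 4 libraries (each member at each temperature), 3 had a library set apart from the others beyond Dixon's 95% limit, and chance alone marks about 4.8 of 96. Srp19 at 40 °C read 30.5 CPM in replicate 3 and 37.8 to 38.4 CPM in the other 3 libraries. Srp72 at 44 °C read 147 CPM in replicate 1 and 172 to 175 CPM in the others. Ssr1 at 40 °C read 510.1 CPM in replicate 2 and 453.9 to 456.3 CPM in the others.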

How the results depend on the processing

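Magt1, Rpn2 and Ssr4 kept their calls at 44 °C against 37 °C in all alternatives run. There, 10 members (3145 genes) were called with the within-group component as a covariate and 3 members (630 genes) at a threshold of 0.01, against 5 members and 1975 genes; leaving out 1 library gave 3 to 8 members and 979 to 3355 genes. At 40 °C against 37 °C, no member was called in any alternative, while the genes called were 4 with DESeq2, 13 with no filter and 11 with the covariate, and leaving out 1 library gave 0 to 0. At 44 °C against 40 °C, members called were 2 with only the 2 groups in the fit, 12 with the covariate and 2 at a threshold of 0.01, and leaving out 1 library gave 3 to 4. The genes called were 1211 with DESeq2, 334 with only the 2 groups, 2535 with the covariate and 270 at a threshold of 0.01, and leaving out 1 library gave 394 to 1265. With library totals this comparison had 396 genes higher and 355 lower, against 271 and 453. With the replicate block, 5, 0 and 5 members and 2557, 0 and 901 genes were called in the 3 comparisons. Same-numbered libraries correlated at -0.21 to 0.37 in their deviations, and 4 of 12 correlated best with their own number. Correlations of both signs cannot decide whether the numbers pair the libraries, and the labels do not say. No result changed direction among those called. The uncalled values of Sec61a1, Stt3a and some pair ratios changed sign in some alternatives. Srp9 and Srp54a had the lowest mean counts among the members, 173.2 and 199.2, which limits their precision, and the cause of the changed counts was not tested.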

Other observations

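The median coefficient of variation over the 32 genes stood at 4.60% in the control, 5.03% after 40 °C and 7.62% after 44 °C, beside 8.89%, 10.3% and 11.6% over all genes tested. The widest of the 3 groups was 44 °C for 21 of the 32 genes, beside 48.1% of all genes. The libraries at the ends of the 44 °C group were replicate 1, lowest for 24 of the 32 genes, and replicate 4, highest for 21. The members' median at 44 °C was 5.85% without replicate 1 and 5.68% without replicate 4, beside 9.59% and 11.4% over all genes, a comparison chosen after seeing the data.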
